A study of Canis lupus familiaris with 34 samples.

Results

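Expression of the pentraxin family was described in the mitral valves of 34 Cavalier King Charles Spaniels, a breed prone to myxomatous mitral valve disease (MMVD). The family was taken as 7 genes, namely NPTX1, NPTX2, NPTXR, PTX3, PTX4, CRP and APCS. NPTX1 was picked because it differed between the 2 groups of dogs below in these same libraries, and the other 6 genes were added as its relatives. A member was found by its gene symbol, and the canine RefSeq feature was used where a human-derived feature was also listed. Of the 23768 features in the table, 6 of the 7 genes had one, and 5 passed the minimum of 100 counts over all dogs, among 19568 features tested. APCS was not analysed here. All dogs were Cavalier King Charles Spaniels of about 10 years. The 10y-noCHF group held 19 dogs (10 females, 9 males) without congestive heart failure (CHF), and the 10y-MMVD-CHF group held 15 dogs (6 females, 9 males) in CHF caused by MMVD. The dogs were privately owned and the 10y-noCHF group was not a disease-free group, since nearly all of its dogs had MMVD without CHF, and in several of them the valve disease was severe. The tissue was the excised mitral valve, sequenced as polyA RNA.

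Pentraxins are secreted or membrane-bound proteins that share a carboxy-terminal pentraxin domain and assemble into ring-like multimers. The neuronal pentraxins NPTX1 and NPTX2 are released at synapses, where they gather AMPA-type glutamate receptors, and NPTXR is their membrane-anchored relative. PTX3 is a long pentraxin made in tissues by endothelial cells, fibroblasts and myeloid cells under inflammatory signals, whereas CRP and APCS are short pentraxins of plasma made mainly by the liver.

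Total counts per dog ranged from 46185256 to 82361245, with medians of 59645613 for 10y-noCHF and 62167469 for 10y-MMVD-CHF dogs. All 9 markers of valve interstitial cells were measured, and their summed level was 13234 to 36091 CPM (counts scaled to a common library size of 1e6, with TMM factors) in every dog. Heart muscle was carried along to very different degrees, with 13 cardiomyocyte markers summing to between 52.8 and 45653 CPM. CAV1047 had the highest cardiomyocyte sum, and CAV614 had the highest sums for neutrophil and red blood cell markers (137 and 4271 CPM). Both dogs stood apart in earlier results of these data and both were 10y-MMVD-CHF. In bulk tissue, fewer cells of a type and less RNA per cell cannot be told apart.

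The counted features differed in kind between members. On the canFam4 assembly, NPTX1 was a human-derived feature on the plus strand of chr9:2227986-2237541, and NPTX2 was one on the minus strand of chr6:10888519-10899439. NPTXR lay on the plus strand of chr10:26989427-27012630, PTX3 on the plus strand of chr23:51508244-51513408 and PTX4 on the plus strand of chr6:39797243-39801174. These intervals include introns, so a level per kilobase is a level per kilobase of counted interval. CRP was a canine RefSeq feature of 680 exonic bases within chr38:23230159-23231548. No other tested feature overlapped NPTX1, NPTX2 or PTX4. PTX3 lay wholly inside the feature of VEPH1, which runs on the opposite strand from 51336010 to 51551699. Counting used no strand and let a read count on every feature it touched, and the 15761 counts of PTX3 were 95.2% of the 16548 counts of VEPH1. The reads of these genes could therefore not be told apart within the interval. Few of the VEPH1 counts lay outside the 5165 bases of PTX3, although its feature is far longer. NPTXR lay almost wholly (99.99%) inside an unusually long feature of CSNK1E on the same strand. Its 31967 counts were 1.64% of the 1945211 counts there. That share does not show how many of the NPTXR counts came from CSNK1E, which was not tested. Among RefSeq genes, none but NPTXR itself overlapped its interval.

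Members were compared with each other as CPM per kilobase of counted feature. PTX3 had the highest median over the 34 dogs, 0.865 CPM per kilobase, followed by NPTXR at 0.664, NPTX2 at 0.584, NPTX1 at 0.237 and PTX4 at 0.0175. The order of the upper 3 was loose, since PTX3 was above NPTXR in 22 of 34 dogs and NPTXR above NPTX2 in 23. NPTX2 exceeded NPTX1 in 29 dogs, and NPTX1 exceeded PTX4 in 33. CRP, with a median of 0, closed the order. The place of PTX3 depended on the division by interval length. In CPM alone the medians were 15.4 for NPTXR, 6.37 for NPTX2, 4.47 for PTX3 and 2.26 for NPTX1. The valves thus held measurable reads on all 3 neuronal pentraxin genes, and almost none on the liver gene CRP.

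NPTX1, the secreted neuronal pentraxin, was on average the lowest of the 3 neuronal pentraxins and differed widely between dogs. In the 10y-noCHF group it ran from 0.247 CPM in CAV444 through a median of 1.67 to 4.07 CPM in CAV579, which were 14 to 269 counts. The 10y-MMVD-CHF group ran from 1.10 CPM in CAV614 through a median of 3.99 to 8.30 CPM in CAV1872, which were 74 to 607 counts. The groups overlapped. Of the 15 10y-MMVD-CHF dogs, 13 exceeded the median of the 10y-noCHF dogs and 7 exceeded every one of these, while 7 10y-noCHF dogs lay below every 10y-MMVD-CHF dog. Those 7 were 6 males and 1 female, CAV447. The median in the 10y-MMVD-CHF group was 2.39 times the median in the 10y-noCHF group, and the means were 4.14 ± 2.16 CPM (SD, n = 15) and 1.71 ± 1.10 CPM (SD, n = 19).

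**Figure D1:**
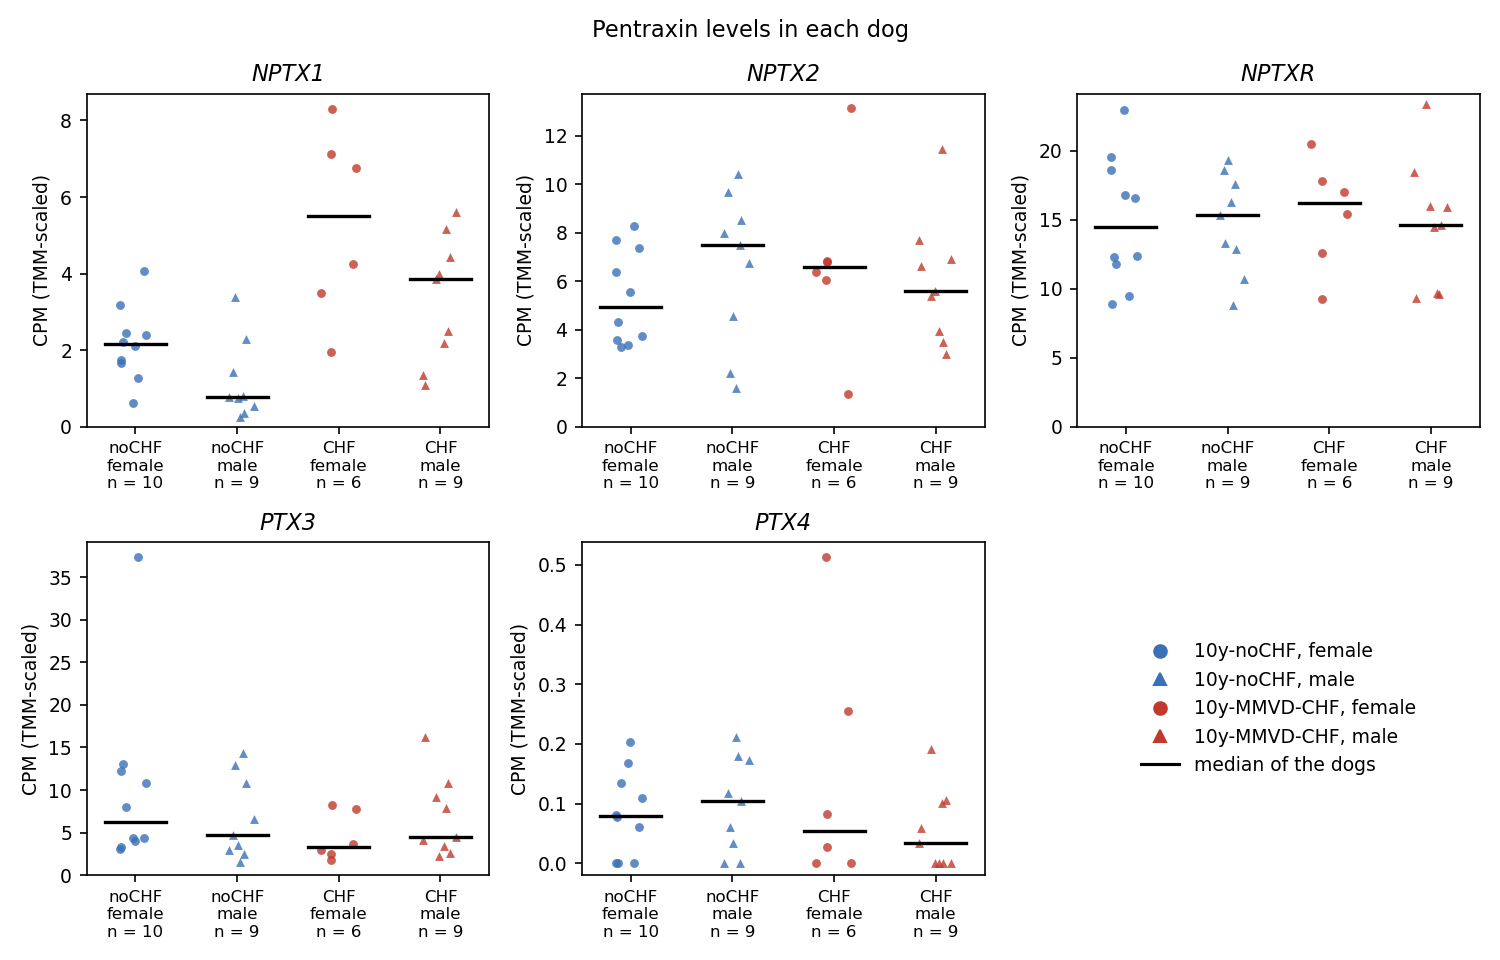
Level of 5 pentraxins in each dog, as TMM-scaled CPM, by CHF group and sex, with a black line at the median of the dogs; each panel has its own vertical axis. NPTX1 has its lowest median, 0.787 CPM, in the 10y-noCHF males and its highest, 5.51 CPM, in the 10y-MMVD-CHF females, while a single 10y-noCHF female reaches 37.3 CPM for PTX3.

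The direction was the same in both sexes, in the dogs on which NPTX1 was chosen. Female 10y-noCHF dogs had 0.635 to 4.07 CPM of NPTX1 with a median of 2.17, and female 10y-MMVD-CHF dogs had 1.95 to 8.30 CPM with a median of 5.51. In males, the 10y-noCHF dogs had 0.247 to 3.40 CPM with a median of 0.787, and the 10y-MMVD-CHF dogs had 1.10 to 5.60 CPM with a median of 3.85. All 9 10y-MMVD-CHF males lay above the median of the 10y-noCHF males, and 5 of 6 10y-MMVD-CHF females lay above that of the 10y-noCHF females. Ranges overlapped within each sex.

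The difference between the groups is given here as a description, since NPTX1 was chosen on it. With edgeR's quasi-likelihood fit over all tested features and sex as a fixed effect, the log2 fold change of NPTX1 (10y-MMVD-CHF over 10y-noCHF) was 1.41 with a standard error (SE) of 0.295. It was 1.29 (SE 0.340) among the 16 females alone and 1.49 (SE 0.458) among the 18 males alone. NPTX1 was the only one of the 5 tested members below the FDR threshold of 0.1, where 0.118% of all features were called, 0.0256% higher and 0.092% lower in 10y-MMVD-CHF. Because the choice of the gene used this contrast, nothing is read from that count.

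**Figure D2:**
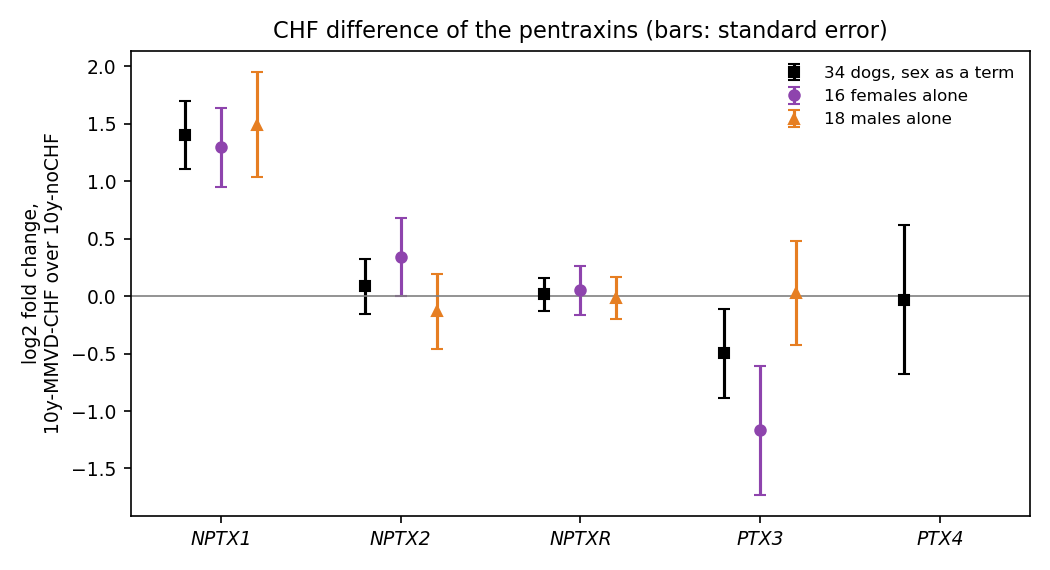
Log2 fold change of each tested pentraxin between 10y-MMVD-CHF and 10y-noCHF dogs, for all 34 dogs and for each sex alone, with bars of 1 SE; PTX4 had too few counts to be fitted within a sex. NPTX1 lies between 1.29 and 1.49 in all 3 fits, and NPTX2 and NPTXR lie near 0.

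Leaving out each dog in turn is given as a description as well, since NPTX1 was chosen on this contrast. Without any 1 of several dogs, the FDR of NPTX1 was above the threshold. The FDR depends on all features tested, and 8 to 28 features were called when each dog was left out. A lost call is therefore not a measure of NPTX1 in the dog left out. With each of the 34 dogs left out in turn, the log2 fold change stayed between 1.33, without CAV444, and 1.61, without CAV285. The gene was no longer called without any one of CAV648, CAV828, CAV1259, CAV1519 and CAV2102 among the 10y-MMVD-CHF dogs, or of CAV749 and CAV901 among the 10y-noCHF dogs. It was also not called without the sex term, where its log2 fold change was 1.28 and 0.0664% of all features were called. Without CAV614 and CAV1047 together it was 1.55.

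**Figure D3:**
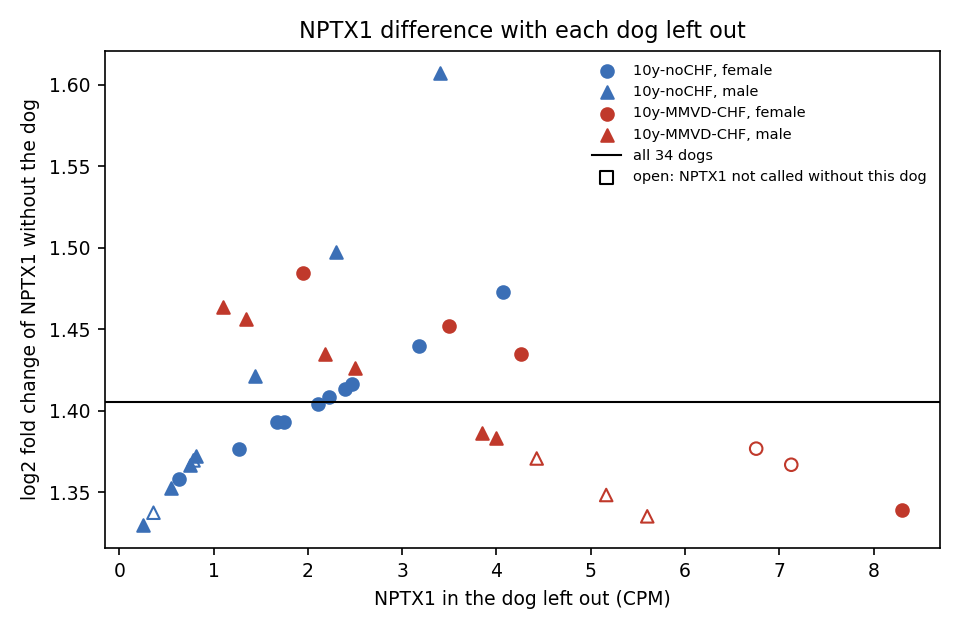
Log2 fold change of NPTX1 after leaving out each dog, against the level of NPTX1 in that dog in CPM; the line is the value with all 34 dogs, and open symbols are dogs without which NPTX1 was above the FDR threshold of 0.1. All 34 values lie between 1.33 and 1.61, and 7 symbols are open.

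VWF, the von Willebrand factor of endothelial cells, was higher in the same contrast. It ran from 17.4 through a median of 61.5 to 211 CPM in the 10y-noCHF group and from 81.7 through 168 to 557 CPM in the 10y-MMVD-CHF group (log2 fold change 1.40, SE 0.299, edgeR FDR = 0.0678). For the other 9 endothelial markers together the summed level was 425 to 935 CPM with a median of 670 in the 10y-noCHF group, and 539 to 1188 CPM (median 671) in the 10y-MMVD-CHF group, and none of the 9 was called. All 10 neuronal markers were measured at a low summed level of 12.3 to 35.9 CPM with a median of 23.8 in the 10y-noCHF group, and of 15.7 to 41.2 CPM (median 27.6) in the 10y-MMVD-CHF group. None of these 10 was called. Cardiomyocyte markers had medians of 2799 CPM without CHF and 3853 CPM with it. With their mean added to the model, the log2 fold change of NPTX1 was 1.39. The part of tissue make-up in the NPTX1 difference was not tested.

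NPTX2, the activity-regulated neuronal pentraxin, was at nearly equal medians in both groups. It ran from 1.59 CPM in CAV444 through a median of 6.38 to 10.4 CPM in CAV865 among 10y-noCHF dogs, and from 1.37 CPM in CAV1876 through 6.36 to 13.1 CPM in CAV1259 among 10y-MMVD-CHF dogs. The groups overlapped almost entirely, and 7 of the 15 dogs in CHF exceeded the median of the dogs without it. Its log2 fold change was 0.09 (SE 0.241), with values of 0.34 (SE 0.339) in females and -0.13 (SE 0.326) in males.

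NPTXR, the membrane-anchored member, had the smallest spread between dogs of the 5 tested members, and also the most counts (31967). Beside features of like level its spread was larger than in most, as given below. NPTXR ran from 8.83 through 15.4 to 22.9 CPM in 10y-noCHF dogs and from 9.28 through 15.4 to 23.4 CPM in 10y-MMVD-CHF dogs. Of the 15 dogs in CHF, 8 exceeded the median of those without it. The log2 fold change was 0.02 with an SE of 0.141, the smallest SE among the members.

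PTX3, the inducible long pentraxin, was low in most dogs and high in a few. Among 10y-noCHF dogs it ran from 1.59 CPM in CAV444 through a median of 4.69 to 37.3 CPM in CAV1732, and among 10y-MMVD-CHF dogs from 1.76 CPM in CAV1519 through 4.203 to 16.2 CPM in CAV614. The groups overlapped, and 6 of the 15 dogs in CHF exceeded the median of those without it. Its log2 fold change was -0.50 (SE 0.387). CAV1732 carried much of this value, since it was -0.27 without that dog and -0.67 without CAV614. For VEPH1, whose feature holds the same reads, the value was -0.48 (SE 0.376). In the 2 dogs with the highest PTX3, the summed neutrophil markers were 23.2 CPM (CAV1732) and 137 CPM (CAV614), against group medians of 4.34 CPM in 10y-noCHF and 3.84 CPM in 10y-MMVD-CHF dogs. The part of neutrophils in these PTX3 levels was not tested. Across all 34 dogs the correlation of PTX3 with the neutrophil markers was weak (Spearman's rho 0.12).

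PTX3 is also given by sex, with CAV1732 among the females, and the difference between the sexes did not pass its test. Female 10y-noCHF dogs had 3.04 to 37.3 CPM with a median of 6.20, and female 10y-MMVD-CHF dogs had 1.76 to 8.20 CPM with a median of 3.33. Of the female 10y-noCHF dogs, 4 lay above every female 10y-MMVD-CHF dog. In males the medians were closer, at 4.69 CPM (1.59 to 14.4) in 10y-noCHF and 4.52 CPM (2.28 to 16.2) in 10y-MMVD-CHF dogs. The log2 fold changes were -1.17 (SE 0.560) in females and 0.03 (SE 0.453) in males.

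PTX4, a long pentraxin of little known function, was at the edge of detection. It had 181 counts over all dogs, at most 20 in 1 dog, and none in 5 of 19 10y-noCHF and 6 of 15 10y-MMVD-CHF dogs. The level ran from 0 through a median of 0.0810 to 0.212 CPM in 10y-noCHF dogs and from 0 through 0.0350 to 0.513 CPM in 10y-MMVD-CHF dogs. Its log2 fold change was -0.03 with an SE of 0.650, so even a difference of 1 on the log2 scale was not detectable at this depth. The value was -0.51 without CAV1047, which had the 20 counts.

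CRP, the acute phase protein that is measured in blood as a sign of inflammation, had 4 counts in all. They came as 2 counts in each of the 10y-noCHF males CAV743 and CAV749. The 4 counts were 0.00339 CPM of the 10y-noCHF group, and the 15 10y-MMVD-CHF dogs had 0 counts. Since both reads of a pair were counted, 3 read pairs were taken as the limit that 0 allows, which is 0.00643 CPM over that group, for counting error only. A difference could not be detected at this depth. The hepatocyte markers, which include albumin, summed to 5.99 to 23.8 CPM with a median of 9.35 in 10y-noCHF dogs and 5.62 to 27.5 CPM with a median of 10.6 in 10y-MMVD-CHF dogs.

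Between the sexes, a contrast that was not used to choose the members, none of the 5 members passed the FDR threshold of 0.1. With edgeR 0.143% of all features passed, and DESeq2 also called 0 members, with 0.189% of features. At an unadjusted p below 0.05 there was 1 member, NPTX1, against 2.98% of all features. NPTX1 ran from 0.635 through a median of 2.43 to 8.30 CPM in the 16 females and from 0.247 through 1.81 to 5.60 CPM in the 18 males. Its log2 fold change (male over female, at equal CHF status) was -0.78 with an SE of 0.294 (edgeR, FDR = 0.9997). The lower level in males thus did not hold up against the number of features tested. For NPTX2, NPTXR, PTX3 and PTX4 the log2 fold changes were 0.09, -0.04, -0.09 and -0.46, and their SEs were 0.241, 0.141, 0.383 and 0.681, while the edgeR FDR of each was 0.9997. For PTX4 the value was -0.02 (SE 0.658) without CAV614 and CAV1047 and -0.09 with limma voom. The sign for PTX3 turned to 0.22 (SE 0.332) without CAV1732.

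Whether the CHF difference itself differed between the sexes was tested as an interaction. With edgeR 0 of the 5 members and 0 of 19568 features (0.0%) passed the FDR threshold, and 0 members had an unadjusted p below 0.05, where 6.02% of all features did. DESeq2 called 0 members and 0.0153% of features. For PTX3 the CHF difference was 1.20 higher in males than in females on the log2 scale, with an SE of 0.732 (edgeR FDR = 0.849), so the contrary values of the sexes were not shown to differ. For NPTX1 the interaction was 0.21 (SE 0.597, edgeR FDR = 0.998), an error too large to exclude a sizeable difference either way. NPTX2, NPTXR and PTX4 had interactions of -0.47, -0.06 and -1.503 with SEs of 0.488, 0.288 and 1.37.

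How the members varied from dog to dog was examined on log2 CPM from which group and sex means had been subtracted. The remaining SD was 0.892 for NPTX1, 0.774 for NPTX2, 0.425 for NPTXR and 1.07 for PTX3. Set beside the 1000 features nearest in mean level, the SD was larger than in 82.3% of them for NPTX1, in 88.2% for NPTX2, in 77.6% for NPTXR and in 93.7% for PTX3. These 4 members thus varied more between dogs than most features of like level. PTX4, at the edge of detection, had an SD of 1.23, close to the median of 1.21 in features of like level. It was larger than in 54.6% of them. CAV444 was the lowest of all 34 dogs for NPTX1 and PTX3 and the second lowest for NPTX2.

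Correlations of these residuals over the 34 dogs are given as a description, since the dogs share differences in depth and tissue make-up. The neuronal pentraxins did not follow each other. Spearman's rho was 0.18 between NPTX1 and NPTX2, -0.01 between NPTX1 and NPTXR and -0.02 between NPTX2 and NPTXR. The strongest relation among the members was that of NPTXR with PTX3, at a rho of -0.58 (Pearson's r -0.62), which was -0.71 within the 10y-noCHF group and -0.28 within the 10y-MMVD-CHF group. It was -0.49 when the cardiomyocyte markers were also regressed out. Beside 16170 other features, 95% of which had correlations of -0.65 to 0.68 with NPTXR and of -0.53 to 0.46 with PTX3, the rho of -0.58 was inside the range for NPTXR and just outside that for PTX3.

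NPTXR followed the valve interstitial markers. Spearman's rho with their mean was 0.80, with 0.79 within the 10y-noCHF group and 0.82 within the 10y-MMVD-CHF group. It ran against the cardiomyocyte markers with a rho of -0.67, and the rho with the interstitial markers was 0.64 after these were regressed out. PTX3 had a rho of -0.54 with the interstitial markers, which was -0.71 within the 10y-noCHF group and -0.25 within the 10y-MMVD-CHF group. With the cardiomyocyte markers it was 0.32, and the sign differed between the groups, at 0.57 in 10y-noCHF and -0.21 in 10y-MMVD-CHF dogs. NPTX1 had a rho of 0.36 with the endothelial markers, 0.53 with VWF alone and 0.20 with the other 9 endothelial markers. Within the groups, the value over those 9 was -0.10 in 10y-noCHF and 0.58 in 10y-MMVD-CHF dogs. With the neuronal markers the rho was -0.17 for NPTX1 (0.01 within the 10y-noCHF group), -0.35 for NPTX2 and -0.53 for NPTXR. After the cardiomyocyte markers were also regressed out, these values were -0.37 for NPTX1, -0.44 for NPTX2 and -0.17 for NPTXR.

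**Figure D4:**
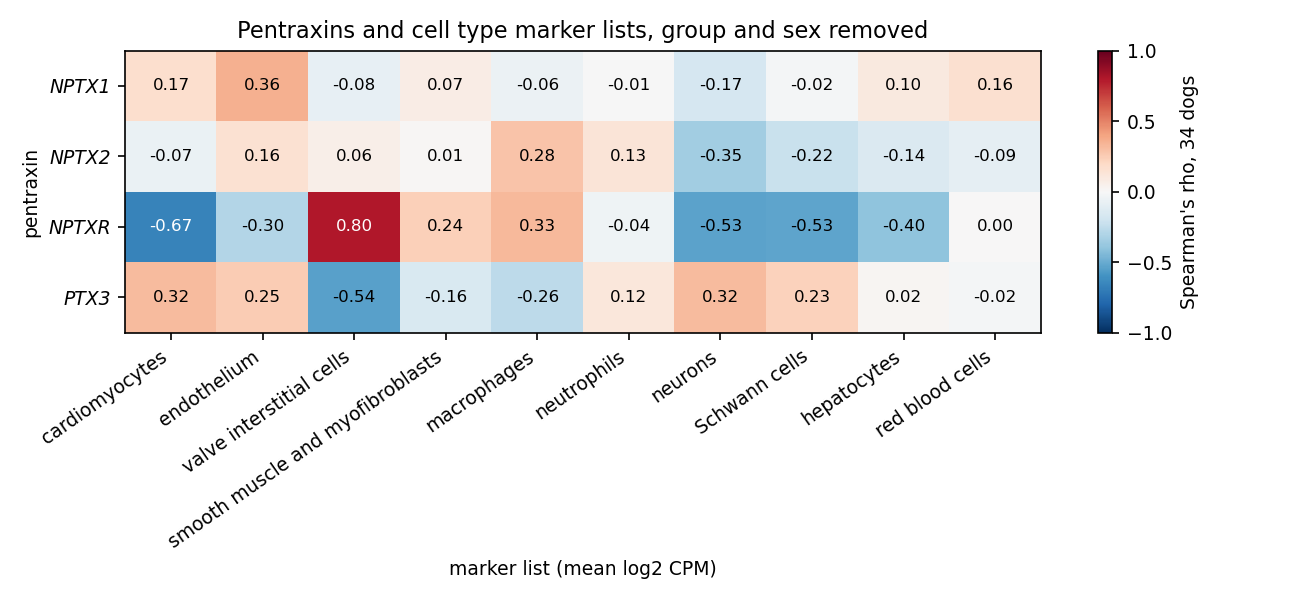
Spearman's rho over 34 dogs between 4 pentraxins (rows) and the mean log2 CPM of 10 cell type marker lists (columns), with group and sex means subtracted. The strongest cells are those of NPTXR, 0.80 with valve interstitial markers and -0.67 with cardiomyocyte markers, and NPTX1 has its highest value, 0.36, with endothelium.

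Among features with a mean of at least 1 CPM, the genes with the highest correlations with NPTX1 included NPPC (rho 0.67), MME (0.61), ASS1 (0.58) and CD38 (0.55). Over 16170 other features, 95% of the correlations with NPTX1 lay between -0.33 and 0.30. NPPC encodes C-type natriuretic peptide, MME encodes neprilysin, which cleaves natriuretic and other peptides, and ASS1 encodes argininosuccinate synthase of arginine synthesis. CD38 is an enzyme of NAD metabolism. In the CHF contrast, which shares its dogs with that of NPTX1, none of these 4 was called with edgeR, whereas DESeq2 called NPPC (DESeq2 FDR = 0.00997) and ASS1 (DESeq2 FDR = 0.0886). In edgeR they had log2 fold changes of 1.81 for NPPC (SE 0.430, edgeR FDR = 0.135), 0.82 for MME (edgeR FDR = 0.698), 1.07 for ASS1 (edgeR FDR = 0.368) and 0.00 for CD38 (edgeR FDR = 0.999).

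For PTX3, the nearest genes apart from VEPH1 (rho 0.996) were CCDC66 (0.78), LYAR (0.75), LARP1B (0.72), NOSTRIN (0.72) and HNRNPA2B1 (0.70). LARP1B and HNRNPA2B1 encode RNA-binding proteins, and NOSTRIN an endothelial protein that regulates nitric oxide synthase. LYAR was counted over intervals on 2 chromosomes, as was MAPRE1 below. NPTXR and NPTX2 were looked at in the same way after their values had been seen. The genes nearest to NPTXR were FBLN5 (0.86), which encodes the elastic fibre protein fibulin-5, and P4HA2 (0.85), which encodes a collagen prolyl hydroxylase. NPTX2 was nearest to MAPRE1 (0.78), SDK2 (0.76) and MTHFD2 (0.75), where 95% of the other features lay between -0.50 and 0.51.

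**Figure D5:**
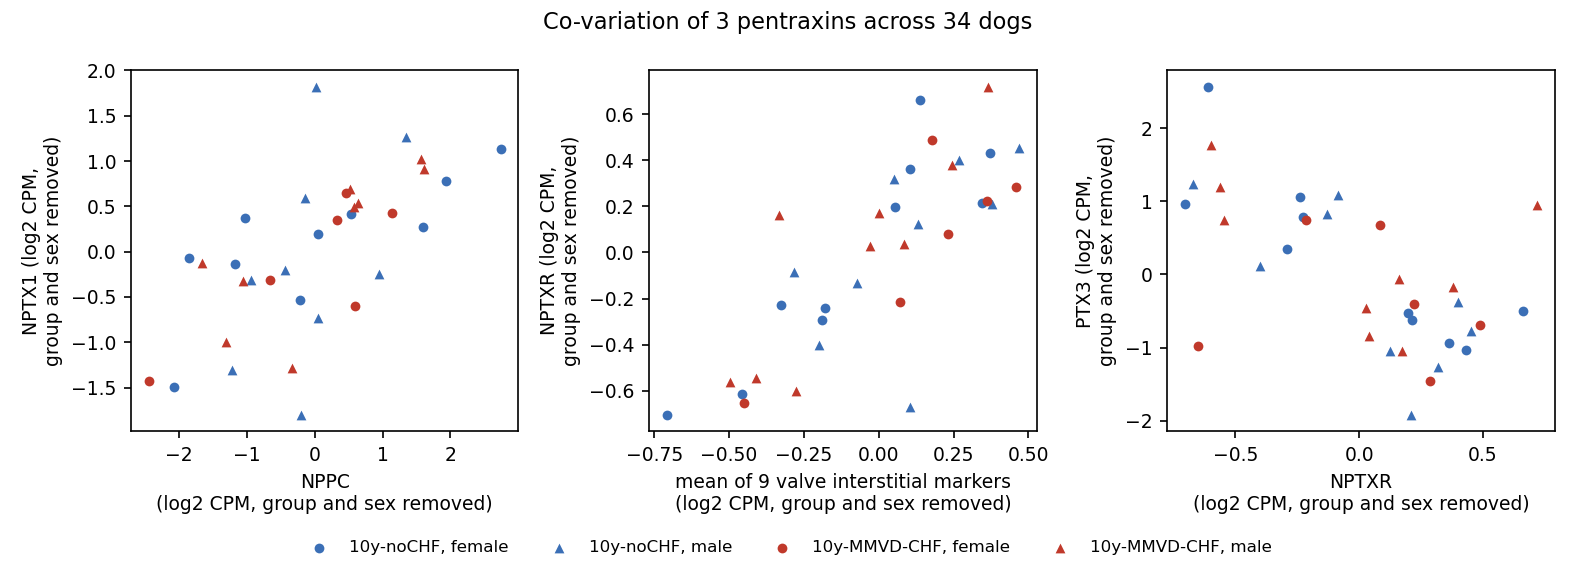
Residual log2 CPM of NPTX1 against NPPC, of NPTXR against the mean of 9 valve interstitial markers and of PTX3 against NPTXR in 34 dogs, with group and sex means subtracted; colours give the group and symbols the sex. Spearman's rho is 0.67, 0.80 and -0.58 from left to right, and for PTX3 against NPTXR it is -0.71 in 10y-noCHF and -0.28 in 10y-MMVD-CHF dogs.

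The genes that work with pentraxins were followed in 4 lists, in the CHF contrast. None of the tested genes of any list was called with edgeR in either direction, beside 0.118% of all features, and DESeq2, with 0.327% of features, called none of them either. Over all features the median log2 fold change was 0.01, and 6.31% had an unadjusted p below 0.05.

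Of 13 AMPA receptor subunits and synaptic partners of the neuronal pentraxins, 9 were tested and 1 had an unadjusted p below 0.05, with a median log2 fold change of -0.05. That gene was CNIH3, an auxiliary subunit of AMPA receptors, at 2.505 to 4.91 CPM with a median of 4.06 in 10y-noCHF dogs and at 1.65 to 4.91 CPM with a median of 2.91 in 10y-MMVD-CHF dogs. On the log2 scale it was at -0.37 relative to 10y-noCHF (SE 0.118, edgeR FDR = 0.446), with 13 of the 15 dogs in CHF under the median of those without it. The receptor subunit GRIA3 was measured at 13.2 to 32.5 CPM in all dogs and is named after its values were seen. CACNG2, CACNG3 and C1QL2 had too few counts to be tested.

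Among 18 ligands and matrix partners of PTX3 and CRP, 15 were tested and 3 had an unadjusted p below 0.05, with a median log2 fold change of 0.24. FCGR2B, an Fc receptor for immunoglobulin G, had the smallest p, at a median of 43.7 CPM (21.97 to 65.7) in 10y-noCHF and of 61.8 CPM (21.5 to 118) in 10y-MMVD-CHF dogs (log2 fold change 0.52, SE 0.172, edgeR FDR = 0.480). FCGR2A, another Fc receptor and another of the 3 genes, is the same measurement, since its counts were 95.6% of those of FCGR2B in an overlapping interval. The third was ITIH1, an inter-alpha-inhibitor heavy chain of the hyaluronan matrix, which is named after its values were seen, with a fold change of 0.71 on the log2 scale (SE 0.244, edgeR FDR = 0.521). TNFAIP6, the hyaluronan-binding partner of PTX3, was at a log2 fold change of -0.35 (SE 0.293). The complement genes C1QA, C1QB and C1QC, whose product binds pentraxins, had log2 fold changes of 0.14, 0.24 and 0.25. Their SEs were 0.163, 0.183 and 0.192, and their edgeR FDRs 0.943, 0.886 and 0.887. For each of them 13 of the 15 dogs in CHF exceeded the median of those without it. These last 4 genes were also named after their values were seen. C1q and Fc receptor genes are expressed by macrophages, whose 7 markers summed to 328 to 927 CPM (median 646) without CHF and to 369 to 952 CPM (median 664) with it. The median log2 fold change of the macrophage markers was 0.19 and none was called, and their part in these values was not tested.

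All 15 inducers and sensors upstream of PTX3 were tested, and 3 had an unadjusted p below 0.05, with a median log2 fold change of 0.05. NFKBIA, the inhibitor of NF-kappaB, had the smallest p. It was at a median of 99.6 CPM (75.6 to 139) in 10y-noCHF dogs and of 80.4 CPM (60.3 to 123) in 10y-MMVD-CHF dogs, with 11 of the 15 dogs in CHF under the median of those without it (log2 fold change -0.28, SE 0.0954, edgeR FDR = 0.480). The other two were IL10 (-0.35, edgeR FDR = 0.757) and IL1R1 (0.22, edgeR FDR = 0.778), an anti-inflammatory cytokine and the receptor of interleukin-1, both named after their values were seen.

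The acute phase list, which holds the signals and plasma proteins that rise with CRP, had 17 of 19 genes tested and 1 with an unadjusted p below 0.05, at a median log2 fold change of 0.11. IL6ST, the shared receptor subunit gp130 of the interleukin-6 family, was at a median of 332 CPM (260 to 487) in 10y-noCHF and of 409 CPM (308 to 645) in 10y-MMVD-CHF dogs. On the log2 scale it was at 0.30 relative to 10y-noCHF (SE 0.0930, edgeR FDR = 0.400), with 13 of the 15 dogs in CHF over the median of those without it. FGA and FGB, which encode fibrinogen chains, had too few counts to be tested.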

How the data were processed

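PolyA RNA of 34 mitral valves was sequenced as paired reads. The authors mapped the reads to canFam4/UU_Cfam_GSD_1.0 by STAR, and the deposited raw counts per feature came from featureCounts 2.0.3, over canine RefSeq genes (2165) and human XenoRefSeq alignments (21603, of which 13164 were 1 interval). Per the file headers, both reads of a pair were counted, without strand and on every feature they overlapped, and 71.3% of the counts above 0 were even. The table has 35 count columns, of which 1 belonged to no sample of the study and was not used. Groups and sexes follow the labels.

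Features that reached 100 counts summed over the dogs were tested with edgeR 4.0.16 (quasi-likelihood, TMM, R 4.3.3) with CHF status and sex as terms, on all 34 dogs, with a Benjamini-Hochberg FDR threshold of 0.1. The study's own tool, DESeq2 1.42.0, was an alternative, as were limma 3.58.1 voom, other normalizations and filters, no sex term, a cardiomyocyte marker covariate and leaving out each dog. CPM are TMM-scaled, and co-variation used log2 CPM with a prior count of 2. Standard errors were derived from edgeR's test statistic and are approximate. The main edgeR fit and the DESeq2 and limma voom fits were run on simulated data, with a pass mark for the CHF and sex contrasts only. The other alternatives were not simulated.

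The members and gene lists were chosen with earlier results of these data known. The genes named are the members, in each list those past the threshold or otherwise the gene with the smallest p, VWF, the 5 genes nearest to NPTX1 and to PTX3, and features overlapping a member. The result for 1 gene that this rule would name is not reported here. The fits within each sex, those without CAV614 and CAV1047 or without CAV1732, and the endothelial list without VWF were added after seeing the data. Dogs were taken as independent, and disease stage, age and collection date are not paired with the dogs in the sources used here, so no analysis by them was made. The planned comparison of protein sequences was not made, since no sequences were used here.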

Additional observations from a re-analysis of the deposited data

Results flagged for a closer look

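PTX3 in the 10y-noCHF females had 1 dog far from the others. CAV1732 had 37.3 CPM (2652 counts) and the next dog had 13.1 CPM, a gap of 0.707 of the range of the 10 dogs. In all, 20 groups of dogs by member, CHF status and sex were examined. The rule has a nominal rate of about 1 group in 20 by chance, and 1 was found. That count does not judge the size of this gap, which was not tested. VEPH1, which shares these reads, reached its highest level of 38.1 CPM among the 10y-noCHF dogs.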

How the results depend on the processing

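In the CHF contrast, the log2 fold change of NPTX1 ran from 1.28 without the sex term to 1.65 with limma voom and sample weights. All these alternatives used the dogs on which NPTX1 was chosen, so this range is a description. The number of pentraxins called in this contrast was 1, or 0 without the sex term, and 0 to 1 when each dog was left out. It was 0 without each of the 7 dogs CAV648, CAV749, CAV828, CAV901, CAV1259, CAV1519 and CAV2102. The number of features called was 23, and it was 64 with DESeq2, 15 with 1 feature per gene symbol, 13 without the sex term, and 8 (without CAV1519 or CAV2102) to 28 (without CAV743) when each dog was left out. With DESeq2 the interaction had 3 features called in place of 0, none of them a pentraxin. The PTX3 difference between sexes turned from -0.09 to 0.22 without CAV1732, and neither value was called. The correlation of NPTX1 with NPTXR moved from -0.01 to 0.21 with the cardiomyocyte markers regressed out. The causes were not tested, apart from the fewer dogs or features that leaving some out implies. NPTX2, near 0, ran from -0.06 to 0.17 with each dog left out. PTX4 did not pass edgeR's filterByExpr, so that alternative gave no value for it. Depth limits PTX4 and CRP, whose counts were at most 20 and 2 per dog. No paired analysis was possible because each dog is in 1 group and the labels give no number shared between groups.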
